A study of Homo sapiens with 36 samples.

Results

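Interferon-beta and a set of interferon-stimulated genes were followed as 1 module across a human monocytic cell line exposed to normal or raised CO2, with and without lipopolysaccharide (LPS). The module held 48 of the 57500 gene identifiers in the count tables. Its members were taken from a written list of gene symbols grouped by role. The list carried 49 names because RIGI and DDX58 name the same gene, which the tables hold as DDX58. All 48 members were among the 17720 genes that passed the filter on low counts, IFNB1 only through the libraries with LPS.

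Interferon-beta is a secreted cytokine that myeloid cells make when pattern recognition receptors are engaged. LPS engages TLR4, whose TRIF arm activates the transcription factor IRF3, and IRF3 together with NF-kB switches on IFNB1. The secreted protein binds its receptor on the same and neighbouring cells, and a transcription factor complex that holds STAT2 and IRF9 then binds the interferon-stimulated response element (ISRE) in the promoters of antiviral genes.

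The cells were THP-1, an established line from an acute monocytic leukaemia, carrying a lentiviral short hairpin RNA. The 3 lines were shNT (non-targeting hairpin), shNR4A2 and shNR4A3, the last 2 directed at the nuclear receptors NR4A2 and NR4A3. Each line was held for 4 h at 5% or 10% CO2 in buffered medium, so that pH was kept level, and received either no stimulus (called basal here) or 2.5 µg/ml LPS for the final 2 h. Each of the 12 conditions had 3 libraries of polyadenylated RNA, 36 in all. All cells, the controls included, were transduced, and each hairpin is represented by 1 line, so a property of a line and the effect of its hairpin cannot be told apart. In bulk RNA, fewer cells expressing a gene and less RNA per cell cannot be told apart either.

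Library totals ran from 16171161 to 23929138 assigned counts, with a median of 19639071. The members took 0.181% to 0.333% of a library's counts. NR4A2 was lower in shNR4A2 than in shNT in all 4 conditions, with log2 fold changes of −0.91, −1.52, −1.02 and −1.67 at 5% CO2 basal, 5% CO2 with LPS, 10% CO2 basal and 10% CO2 with LPS. NR4A3 was lower in shNR4A3 in 3 of these 4, by −2.47, −0.82 and −1.11, and at 10% CO2 basal its log2 fold change of −0.39 did not pass the test (edgeR adjusted p = 0.735). With LPS at 10% CO2, NR4A2 was also lower in shNR4A3 (log2 −0.32) and NR4A3 higher in shNR4A2 (log2 0.57). The monocyte markers CD14, CD33, ITGAM, LYZ, CSF1R, FCGR1A, SPI1, CEBPA and TLR4 summed to 820 CPM (counts scaled to a common library size) or more in every library. The B cell, epithelial and fibroblast lists summed to at most 4.31 CPM.

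The promoters of the members were searched for the motifs through which this pathway acts. RefSeq promoter sequences on GRCh38.p14, running from 250 bases before to 50 bases after the gene start, were at hand for 36 of the 48 members. The ISRE core, GAAA, any 2 bases and GAAA, searched on both strands, lay in those of 23 members (63.9%), against 4.38% of the 27305 genes in the same table. The interferon-gamma activated site TTCNNNGAA lay in 9 (25%) against 9.38% of genes, and the NF-kB motif, GGGA, any 2 bases and TTCC, in 5 (13.9%) against 1.97%. Those 5 were IFNB1, IFIH1, DDX58, OAS3 and GBP4. A match is a description of the letters in the window and not of a bound site. The lines below show 60 bases, 5′ to 3′ on the coding strand, around the ISRE core nearest the gene start of 6 antiviral members that the results return to and around the NF-kB motif of IFNB1. Capitals mark the match, which reads as the reverse complement in IFIT1, IFIT3 and IFI44.
IFIT1, chr10:89392495-89392554, + strand: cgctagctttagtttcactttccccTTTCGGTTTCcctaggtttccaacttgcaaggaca
IFIT3, chr10:89332453-89332512, + strand: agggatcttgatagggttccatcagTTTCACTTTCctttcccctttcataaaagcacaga
ISG15, chr1:1013365-1013424, + strand: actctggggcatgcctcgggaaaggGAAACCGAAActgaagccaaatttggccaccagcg
IFI44, chr1:78649746-78649805, + strand: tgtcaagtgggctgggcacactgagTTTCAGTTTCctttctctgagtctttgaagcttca
IFI44L, chr1:78620350-78620409, + strand: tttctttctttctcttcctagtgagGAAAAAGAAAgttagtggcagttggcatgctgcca
MX1, chr21:41420544-41420603, + strand: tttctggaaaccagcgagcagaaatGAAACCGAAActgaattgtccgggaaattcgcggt
IFNB1, chr9:21077974-21078033, − strand: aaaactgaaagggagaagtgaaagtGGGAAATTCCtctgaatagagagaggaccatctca
The match began 103, 51, 107, 18 and 73 bases before the gene start in IFIT1, IFIT3, ISG15, IFI44 and IFI44L, 11 bases after it in MX1 and 66 bases before it in IFNB1. GBP2, GBP5, OASL, IFIT2, IRF2, IRF3, IRF7, OAS2, MX2, USP18, IFITM2 and DHX58 had no entry in the table.

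The members spanned a wide range of levels in unstimulated control cells. Per unit of gene length, in transcripts scaled to a common total (TPM), IFI6 was the highest in shNT at 5% CO2, at 454 ± 52.4 (SD, n = 3). BST2, which encodes the membrane protein tetherin, followed at 343 ± 14.3, then the myeloid transcription factor IRF8 at 302 ± 23.4 and the membrane restriction factor IFITM3 at 253 ± 35.5. The ranges of 1 SD on either side of the mean overlapped for IRF8 and IFITM3 and were apart for IFI6 and BST2 and for BST2 and IRF8. At the other end, GBP1 stood at 0.0894 ± 0.0226 TPM and IFNB1 was at 0 counts. With LPS the leaders of the order were IFI6 at 485, BST2 at 342, IFITM3 at 256 and IRF8 at 226 TPM, and IFNB1 reached 2.94 ± 0.985 TPM, above GBP1 at 0.721 TPM. Several members share reads or sequence with a neighbour (IFIT1, IFIT2 and IFIT3 with LIPA, IRF3 with BCL2L12, EIF2AK2 with GPATCH11, RSAD2 with CMPK2 and PARP9 with DTX3L, besides the alike IFITM, GBP and IFIT paralogs), and their values are uncertain to that extent because the strand setting of the counting is not given in the sources used here.

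The first comparison asked what LPS did to the module in each line at each CO2 level. GBP1, GBP2, GBP5, OASL, IFIT2, IFIT3 and IFIH1 rose in every line at both CO2 levels, IRF5 fell in all of them, and many interferon-stimulated genes did not pass the test within the 2 h of LPS. In shNT at 5% CO2 15 members rose and 5 fell, where 11.2% and 11.6% of all genes tested did (22.9% in all, the background). At 10% CO2 18 rose and 3 fell, against 15.1% and 16.1% of all genes (31.2% in all). In shNR4A2 13 rose and 1 fell at 5% CO2, against 8.91% and 9.26% (18.2%), and 18 rose and 2 fell at 10% CO2, against 16.5% and 18.5% (35.0%). In shNR4A3 26 rose and 2 fell at 5% CO2, against 11.9% and 13.4% (25.3%), and 33 rose and 2 fell at 10% CO2, against 20.6% and 21.5% (42.1%). Each of these counts of members that rose includes IFNB1, whose direction the filter had fixed, and without it they were 14 and 17 of 47 in shNT, 12 and 17 in shNR4A2 and 25 and 32 in shNR4A3. The share of these 47 called either way was above the background in all 6 comparisons, with the narrowest gap in shNR4A2 at 10% CO2 (40.4% against 35.0%) and the widest in shNR4A3 at 5% CO2 (57.4% against 25.3%). Their median log2 fold change was 0.22 and 0.26 in shNT, 0.27 and 0.45 in shNR4A2 and 0.47 and 0.64 in shNR4A3, at 5% and 10% CO2, with the median of all genes tested between −0.015 and 0.003.

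The transcript of the ligand itself was absent or nearly so before LPS. IFNB1 had 0 counts in all 3 basal libraries of 4 line and CO2 combinations, 3, 0 and 1 counts in shNT at 10% CO2 and 1, 0 and 0 counts in shNR4A2 at 5% CO2. With LPS it had 10, 19 and 15 counts in shNT at 5% CO2, 12, 19 and 20 in shNT at 10% CO2 and 18, 13 and 20 in shNR4A2 at 5% CO2. It had 5, 10 and 14 counts in shNR4A2 at 10% CO2, 16, 17 and 12 in shNR4A3 at 5% CO2 and 6, 4 and 13 in shNR4A3 at 10% CO2. The lowest library with LPS held more reads than the highest basal library. Against a floor of 3 counts over a basal group at 0, IFNB1 stood 15.4-fold higher with LPS in shNT at 5% CO2, 11.4-fold in shNR4A2 at 10% CO2, 16.0-fold in shNR4A3 at 5% CO2 and 9.23-fold in shNR4A3 at 10% CO2. These 4 values leave out the counting error of the libraries with LPS, so they are not strict lower bounds. Where a basal group had counts the ratio was 15 (95% exact interval 5.5 to 57.0) in shNT at 10% CO2, from 51 against 4 counts, and 67.5 (11.6 to 2720) in shNR4A2 at 5% CO2, from 51 against 1. These intervals cover counting error only. The test of IFNB1 with LPS carries no weight of its own, since the gene was kept for testing only through the libraries with LPS. IFNB1 was not called between lines or between CO2 levels.

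Of the 47 members other than IFNB1, 10 rose with LPS in all 6 comparisons, as did 6.87% of all genes. They were IRF1, IRF7, IFIH1, OASL, IFIT2, IFIT3, GBP1, GBP2, GBP5 and TRIM25. GBP1 and GBP2, of the interferon-inducible GTPases that coat pathogen-containing vacuoles, had the steepest changes of these 10 in shNT. GBP2 was at 4.17, 3.39 and 3.40 CPM in basal shNT libraries at 5% CO2 and at 42.8, 34.8 and 45.6 CPM with LPS, an 11.3-fold rise (log2 3.49 ± 0.15 SE, adjusted p = 1.36e-11). Its basal and stimulated libraries lay far apart in every line, and the log2 rise was between 3.40 and 4.54 over the 6 comparisons. GBP1 held 2, 2 and 3 counts against 24, 18 and 21 in the same comparison, so its log2 rise of 3.18 ± 0.50 rests on few reads. GBP5 rose by 1.77 to 2.68 on the log2 scale over the 6 comparisons.

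OASL, an oligoadenylate synthetase-like protein without the synthetase activity of its relatives, rose 2.91-fold in shNT at 5% CO2, from 4.71, 6.02 and 5.15 CPM to 17.7, 12.6 and 15.4 CPM. At 10% CO2 in shNR4A3 it went from 4.02, 3.86 and 5.18 CPM to 27.2, 29.7 and 32.6 CPM, which was 6.94-fold. IFIT2, an RNA-binding antiviral protein, rose 2.30-fold in shNT at 5% CO2, from 9.01, 9.79 and 11 CPM to 22.2, 21.3 and 24.6 CPM. In none of these sets did a stimulated library fall among the basal ones. Of all genes 18.3% in shNT at 5% CO2 and 24.4% in shNR4A3 at 10% CO2 lay wholly higher with LPS. IFIT3, the partner of IFIT1 and IFIT2, rose by 0.93 to 1.95 and the double-stranded RNA sensor IFIH1 (MDA5) by 1.37 to 2.20 on the log2 scale. Among transcription factors, IRF1 rose by 0.45 to 1.16 and IRF7, the amplifier of interferon transcription, by 0.70 to 1.16. The ubiquitin ligase TRIM25, which acts on RIG-I, rose by 0.52 to 1.12.

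IRF5, a transcription factor of TLR signalling, fell in all 6 comparisons, as did 6.09% of all genes. In shNT at 5% CO2 its libraries were at 105, 113 and 97.6 CPM before and at 55.5, 58.9 and 47.7 CPM with LPS, a log2 fold change of −0.95 ± 0.10. The remaining 5 values were −1.37 in shNT at 10% CO2, −1.11 and −1.55 in shNR4A2 and −1.34 and −1.62 in shNR4A3, each pair at 5% and then 10% CO2, with no overlap between basal and stimulated libraries. Between 34.7% and 51.9% of all genes had no such overlap in the 6 comparisons. IRF2, which competes with IRF1 for its sites, fell in 5 of the 6. In shNT at 5% CO2 its call was lost with DESeq2 and kept in 2 of 6 fits that left out 1 library. PARP9 (−0.36), its partner DTX3L (−0.52) and XAF1 (−0.36) fell in shNT at 5% CO2 and IRF8 (−0.42) fell in shNT at 10% CO2. The XAF1 call was lost with DESeq2, without the filter on low counts and with 1 fit to all 36 libraries. It was kept in 1 of 6 fits that left out 1 library. The PARP9 call was lost with 1 fit to all 36 libraries and kept in 4 of 6 such fits. DTX3L and IRF8 kept their calls throughout.

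Much of the module was not called with LPS, though a smaller part than of all genes. In shNT 40.4% and 42.6% of the 47 members other than IFNB1 were called at 5% and 10% CO2, against 22.9% and 31.2% of all genes. In shNT 23 members were called at neither CO2 level, among them both MX GTPases, OAS1, OAS2, EIF2AK2 (PKR), RSAD2 (viperin), IFI44 and IFI44L. IRF3, USP18, HERC5, IFITM1, IFITM2, RSAD2, CMPK2, SAMD9L and IFI35 passed the test in none of the 6 comparisons. IFI44L illustrates this group, with 5.43, 5.25 and 4.82 CPM in basal shNT at 5% CO2 and 5.34, 5.64 and 6.09 CPM with LPS, sets that overlap. By role, the 4 guanylate-binding proteins rose in 3 members in shNT at 5% CO2 and in all 4 in each of the other 5 comparisons. All 4 IFIT genes rose in shNT at 10% CO2, shNR4A2 at 10% CO2 and shNR4A3 at both levels. None of the 4 membrane restriction factors rose in shNT or shNR4A2. MX1 was called higher with LPS in shNR4A3, by 0.36 and 0.60 on the log2 scale at 5% and 10% CO2, as was MX2 by 0.52 and 0.74. The calls of MX1 at both levels and of MX2 at 5% CO2 were lost with scaling by library size alone and with 1 fit to all 36 libraries. When 1 library was left out, MX1 kept its call in 2 of 6 fits at each level. Of the 23 members with an ISRE core in the promoter window, 6 rose in shNT at 5% CO2 (median log2 fold change of the 23, 0.25). Of the 13 without one 4 rose (median 0.15), and these 4 include IFNB1, whose direction the filter had fixed.

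**Figure D1:**
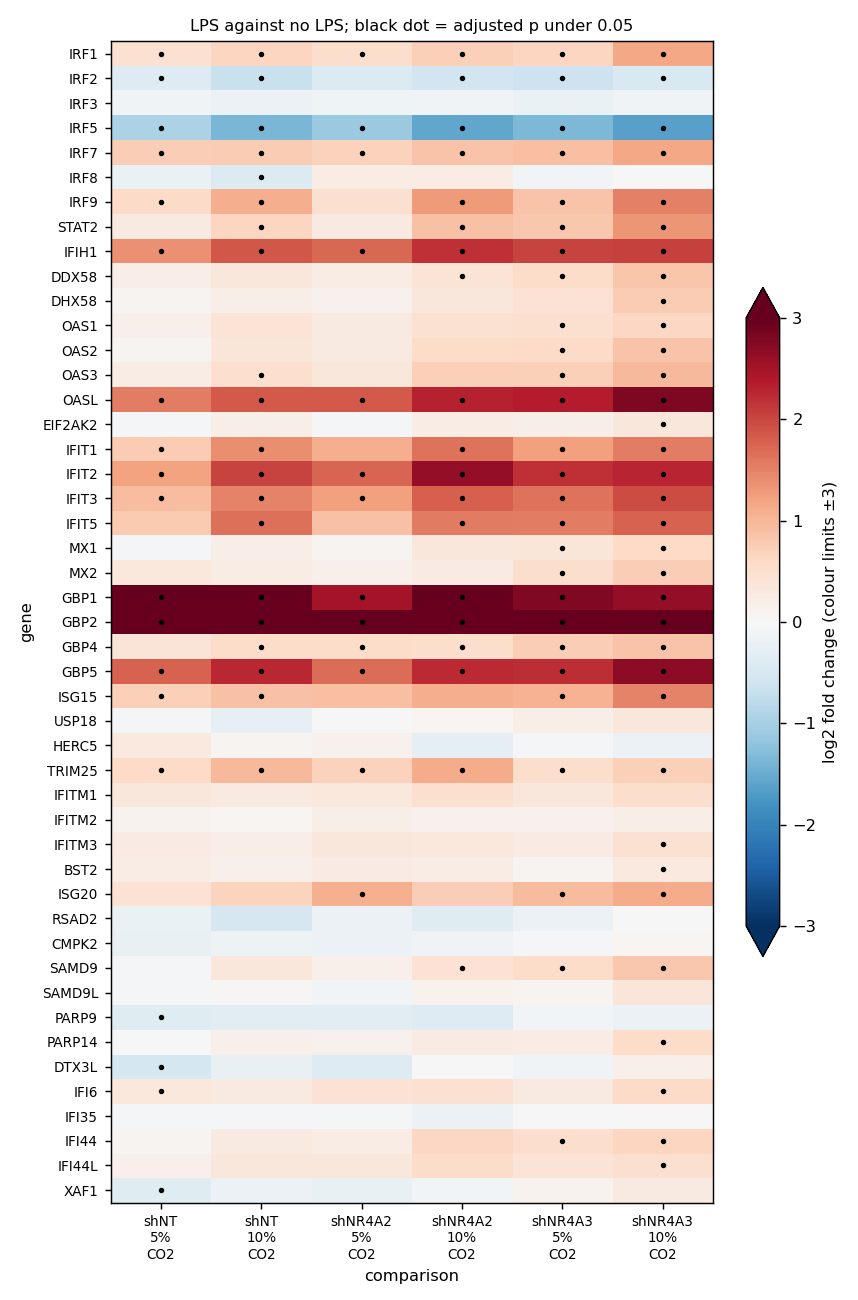
Log2 fold change with LPS of 47 members (rows, grouped by role) in the 6 line and CO2 combinations (columns), with colour from blue (lower) through white to red (higher), limited at 3 in either direction, and a black dot on cells called at adjusted p under 0.05. IFNB1 is left out because its basal groups hold 0 to 4 counts. GBP1, GBP2, GBP5, OASL and IFIT2 are among the darker red rows and IRF5 is blue in every column.

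How many members rise depends on the scaling, since LPS changed the composition of the libraries. With total library size alone in place of TMM normalisation, the median of all genes moved by −0.181 to −0.253 on the log2 scale. The split was then 12 higher and 8 lower in shNT at 5% CO2, 15 and 8 at 10% CO2, 10 and 5 and then 14 and 6 in shNR4A2, and 19 and 3 and then 25 and 6 in shNR4A3. Same-numbered replicates deviated together in 5 of the 6 LPS comparisons, and with the replicate as a block the members called were 23 instead of 14 in shNR4A2 at 5% CO2 (background 27.7%) and 37 instead of 20 in shNR4A2 at 10% CO2 (42.3%).

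The mean over the 48 members of log2 CPM gives 1 value per library. In shNT it was 4.16 ± 0.08 at 5% CO2 and 4.58 ± 0.09 with LPS, then 4.00 ± 0.10 at 10% CO2 and 4.58 ± 0.20 with LPS (SD, n = 3). shNR4A2 stood at 4.30 ± 0.23, 4.81 ± 0.30, 4.19 ± 0.23 and 4.90 ± 0.32 in the same order, with the widest spread between replicates of the 3 lines. shNR4A3 had the highest means, at 4.45 ± 0.14, 5.14 ± 0.13, 4.33 ± 0.11 and 5.19 ± 0.18. They were 0.15, 0.33, 0.14 and 0.29 above those of shNR4A2, with overlap of the libraries each time. The shNR4A2 means were 0.14, 0.23, 0.19 and 0.32 above those of shNT, also with overlap. The rise with LPS was 0.42 and 0.59 in shNT, 0.51 and 0.71 in shNR4A2 and 0.69 and 0.86 in shNR4A3. In no case did basal and stimulated libraries overlap. These means include IFNB1, whose direction with LPS the filter had fixed, so that it adds to each rise. In shNT at 5% CO2 IFNB1 was at −3.3 log2 CPM in every basal library and at −0.7, 0.11 and −0.27 with LPS. The mean without IFNB1 was not taken. Replicate 1 was the lowest of its condition in 10 of the 12 conditions and tied for lowest in 1 more.

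**Figure D2:**
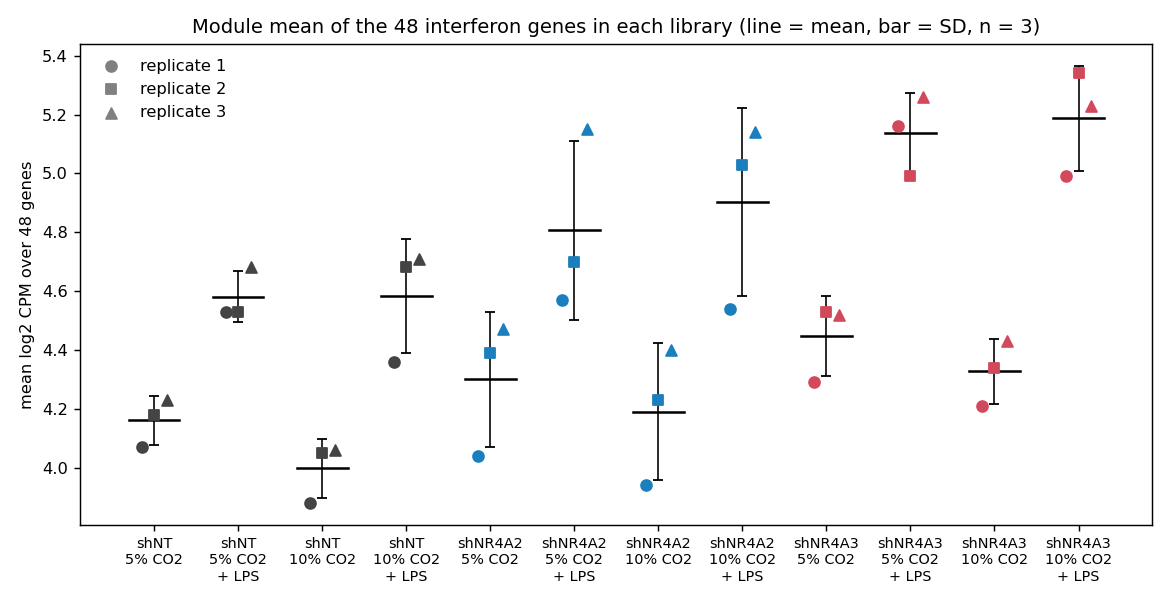
Mean log2 CPM of the 48 members in each of the 36 libraries, grouped by condition on the x axis, with a symbol per library (circle, square and triangle for replicates 1, 2 and 3), a line at the mean of the 3 libraries and a bar of 1 SD. The libraries with LPS lie above the basal ones of the same line and CO2 level, and shNR4A3 reaches the highest means, 5.14 and 5.19. The 48 include IFNB1, whose direction with LPS the filter had fixed.

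The next comparison asked how the knockdown lines differed from shNT under the same treatment. In shNR4A3 a broad part of the module was higher, with more members called in the libraries with LPS than in the basal ones. At 5% CO2 12 members were higher and 1 lower in basal cells, where 3.36% and 2.83% of all genes were (6.19% in all), and with LPS 24 were higher and none lower, against 3.24% and 2.17% (5.41%). At 10% CO2 15 were higher and 1 lower in basal cells, against 3.49% and 3.35% (6.85%), and with LPS 32 were higher and none lower, against 7.30% and 7.21% (14.5%). The module mean was 0.29, 0.56, 0.33 and 0.61 above that of shNT in these 4 conditions, without overlap of the libraries. Taken between same-numbered replicates the differences were 0.22 to 0.35, 0.46 to 0.63, 0.29 to 0.37 and 0.52 to 0.66.

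IRF8, OAS1, IFIT3, CMPK2, IFI35, IFI44 and IFI44L were higher in shNR4A3 than in shNT in all 4 conditions, as were 1.26% of all genes. IFI44L, a feedback regulator of the interferon response, was at 8.50, 10.1 and 8.87 CPM in shNR4A3 against 5.43, 5.25 and 4.82 CPM in shNT at 5% CO2 basal (log2 0.82 ± 0.16). With LPS it was at 11.8, 11.3 and 13.2 CPM against 5.34, 5.64 and 6.09 CPM (log2 1.09 ± 0.14). Every shNR4A3 library was above every shNT library in both sets, as was so for 12.2% and 12.7% of all genes. Its neighbour IFI44 had log2 differences of 0.78, 1.23, 0.95 and 1.33 in the order 5% basal, 5% with LPS, 10% basal and 10% with LPS, its libraries with LPS at 5% CO2 being at 10.7, 11.4 and 11.2 CPM against 4.83, 3.74 and 5.6 CPM in shNT. IRF8 was 0.66, 0.79, 0.53 and 0.93 higher and CMPK2, a mitochondrial nucleotide kinase, 0.58, 0.77, 0.71 and 0.90.

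With LPS at both CO2 levels 21 members were higher in shNR4A3, as were 2.77% of all genes. They took in both MX GTPases, OAS1, OAS2 and OASL, IFIT2 and IFIT3, GBP1, GBP2 and GBP4, ISG15, SAMD9 and SAMD9L, and IRF1, IRF7 and IRF8. IFIT2 with LPS at 5% CO2 was at 59.8, 37.4 and 66.3 CPM in shNR4A3 against 22.2, 21.3 and 24.6 CPM in shNT (log2 1.27 ± 0.19), and its basal values at the same CO2 level, 8.77, 12.3 and 14.6 against 9.01, 9.79 and 11 CPM, overlapped. OASL with LPS at 10% CO2 was at 27.2, 29.7 and 32.6 CPM against 11.2, 14 and 15 CPM (log2 1.15 ± 0.12), again with overlapping basal libraries. GBP2 with LPS at 5% CO2 was at 106, 62.5 and 90.3 CPM against 42.8, 34.8 and 45.6 CPM (log2 1.07 ± 0.19). By role, with LPS at 10% CO2 the higher members were 4 of 5 OAS and PKR genes, 3 of 3 RIG-I-like receptors, 5 of 5 of the group of IFI6, IFI35, IFI44, IFI44L and XAF1, 3 of 4 guanylate-binding proteins and 2 of 4 IFIT genes.

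Not all members were higher in shNR4A3. IFNB1, IRF2, IRF3, IRF5, USP18, HERC5, TRIM25, IFITM1, IFITM2 and ISG20 were called in none of the 4 conditions. GBP5, which promotes inflammasome assembly, was lower in basal shNR4A3, at 11.2, 10.7 and 12 CPM against 17.8, 18.8 and 18.7 CPM at 5% CO2 (log2 −0.70 ± 0.12), and by −0.69 at 10% CO2, with no overlap. Of all genes 11.8% lay wholly lower in basal shNR4A3 at each CO2 level. With LPS the GBP5 differences of −0.24 and −0.26 did not pass the test.

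The counts for shNR4A3 varied with the fit and with single libraries. With 1 fit to all 36 libraries they were 5 and 7 in basal cells at 5% and 10% CO2, where OAS1, IFIT3, IFI44 and IFI44L lost their calls at both levels (edgeR adjusted p from 0.0646 to 0.368). With LPS the same fit lost the calls of MX1, GBP4, ISG15 and SAMD9L at both levels. It also lost those of OAS2, OAS3, MX2 and PARP14 at 5% CO2 and of IFIH1, EIF2AK2, IFITM3, DTX3L and IFI6 at 10% CO2. The edgeR adjusted p of these lost calls ran from 0.0531 to 0.297. With the replicate as a block the counts were 37 with LPS at 5% CO2 (background 18.7%) and 20 basal at 5% CO2 (13.0%). The same-numbered libraries did deviate together in these 2 comparisons. Without shNT replicate 2 or shNR4A3 replicate 3 of the 5% CO2 with LPS libraries the count of 24 became 13 or 14, and without shNR4A3 replicate 3 of the 10% CO2 with LPS libraries the count of 32 became 19. In basal cells at 5% CO2 the 13 called became 8 without shNT replicate 1, shNT replicate 2 or shNR4A3 replicate 3, and at 10% CO2 the 16 became 9 without shNT replicate 2 and 8 without shNR4A3 replicate 2 or 3.

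**Figure D3:**
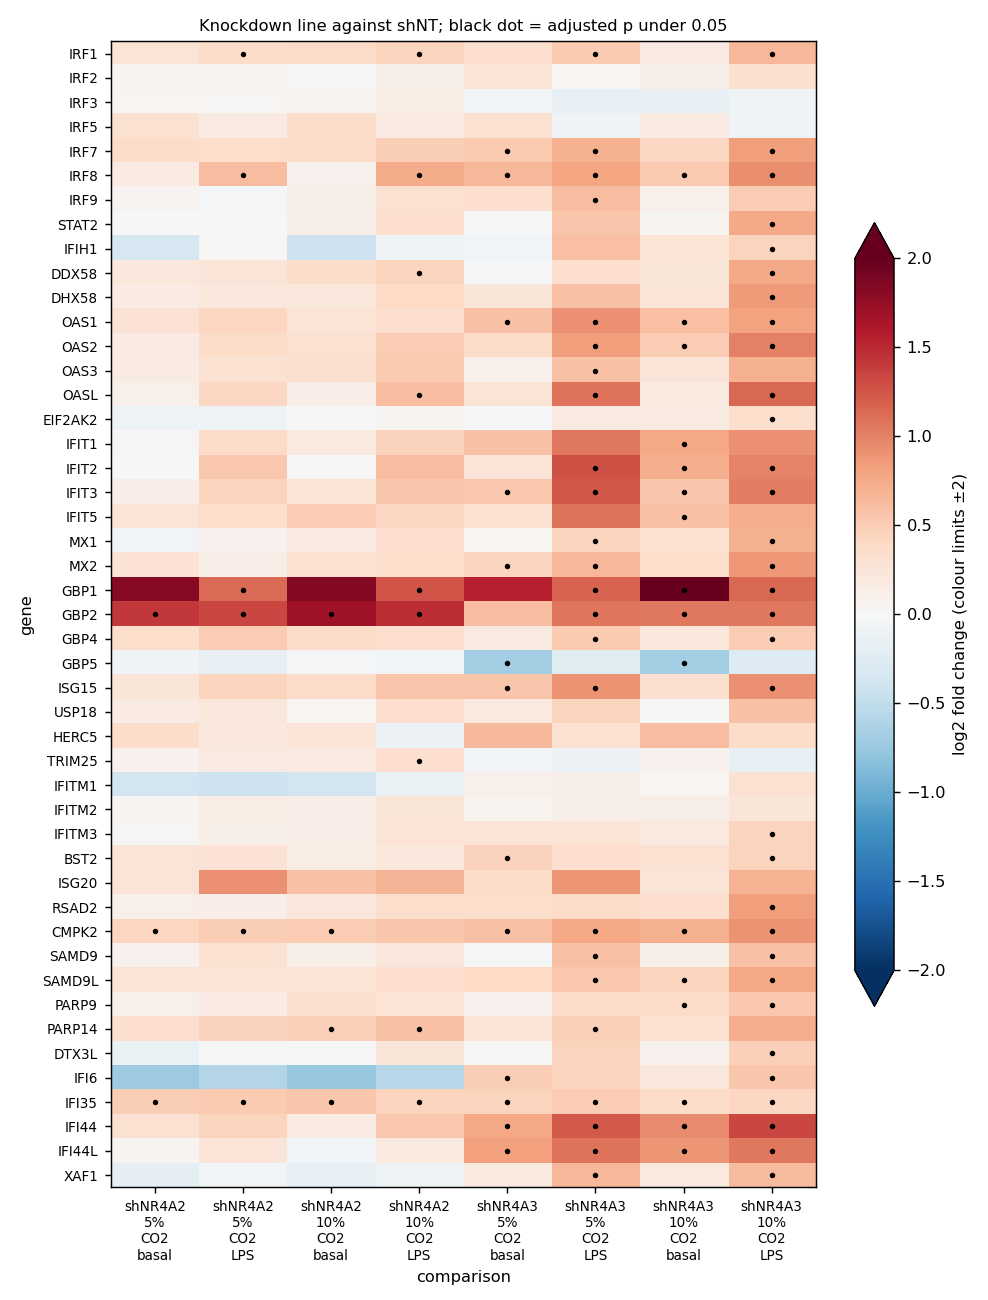
Log2 difference of 47 members (rows, grouped by role) between each knockdown line and shNT in the 4 conditions (columns), with colour limited at 2 in either direction and a black dot on cells called at adjusted p under 0.05. The shNR4A3 columns with LPS hold the most dots, 24 and 32 members higher.

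In the fits without a replicate block, fewer members differed from shNT in shNR4A2 than in shNR4A3. More were called in shNR4A2 with the replicate as a block. No member was lower. At 5% CO2 3 members were higher in basal cells, where 3.22% of all genes were higher and 2.47% lower (5.69% in all), and 6 with LPS, against 3.84% and 2.37% (6.21%). At 10% CO2 4 were higher in basal cells, against 4.55% and 3.40% (7.95%), and 9 with LPS, against 9.29% and 9.58% (18.9%). As shares of the 48 members these were 6.25%, 12.5%, 8.33% and 18.8%. They were above the share of all genes called higher, in basal cells on only 3 and 4 members. In these fits without a block, the total called either way was close to the background except with LPS at 5% CO2. With the replicate as a block the counts were 11 (background 21.5%), 18 (24.7%) and 33 (34.8%) at 5% CO2 basal, 5% CO2 with LPS and 10% CO2 with LPS. As shares of the 48 members, 18 and 33 were above the background and 11 was close to it. Same-numbered libraries deviated together in these 3 comparisons. At 10% CO2 basal the replicate numbers did not pair the libraries. Without shNR4A2 replicate 1 of the 10% CO2 with LPS libraries 29 members were called, and without its replicate 3 only 5. Leaving out any shNT library or shNR4A2 replicate 3 left 1 of the 3 calls in basal cells at 5% CO2, leaving out an shNT library left 2 of the 6 with LPS at 5% CO2 and leaving out shNR4A2 replicate 1 left 3, and without shNR4A2 replicate 1 the 4 at 10% CO2 basal became 7.

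GBP2 and IFI35 were higher in shNR4A2 than in shNT in all 4 conditions, as were 1.75% of all genes. Basal GBP2 at 5% CO2 was at 8.89, 10.6 and 9.67 CPM in shNR4A2 against 4.17, 3.39 and 3.40 CPM in shNT (log2 1.41 ± 0.17), and at 10% CO2 with LPS at 153, 158 and 151 CPM against 53.8, 58.8 and 52.9 CPM (log2 1.48 ± 0.07). The libraries of the 2 lines were well apart in both cases. Of all genes 12.3% and 17.7% lay wholly higher in shNR4A2 in these 2 comparisons. IFI35, which binds the protein NMI, was at 35.2, 42.3 and 39.6 CPM against 29.7, 27.9 and 26 CPM at 5% CO2 basal (log2 0.49 ± 0.12), and its difference stayed between 0.44 and 0.56 in the 4 conditions. The same gene differed by 0.45, 0.50, 0.37 and 0.41 in shNR4A3. IRF8 (0.62 and 0.74) and GBP1 (1.14 and 1.26) were higher in shNR4A2 with LPS at 5% and 10% CO2. IFI6 went the other way in value, with log2 differences of −0.72, −0.59, −0.76 and −0.57 that did not pass the test, its 3 shNR4A2 libraries at 5% CO2 basal spreading over 33.5, 75.1 and 72.0 CPM against 87.8, 106 and 105 CPM in shNT.

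**Figure D4:**
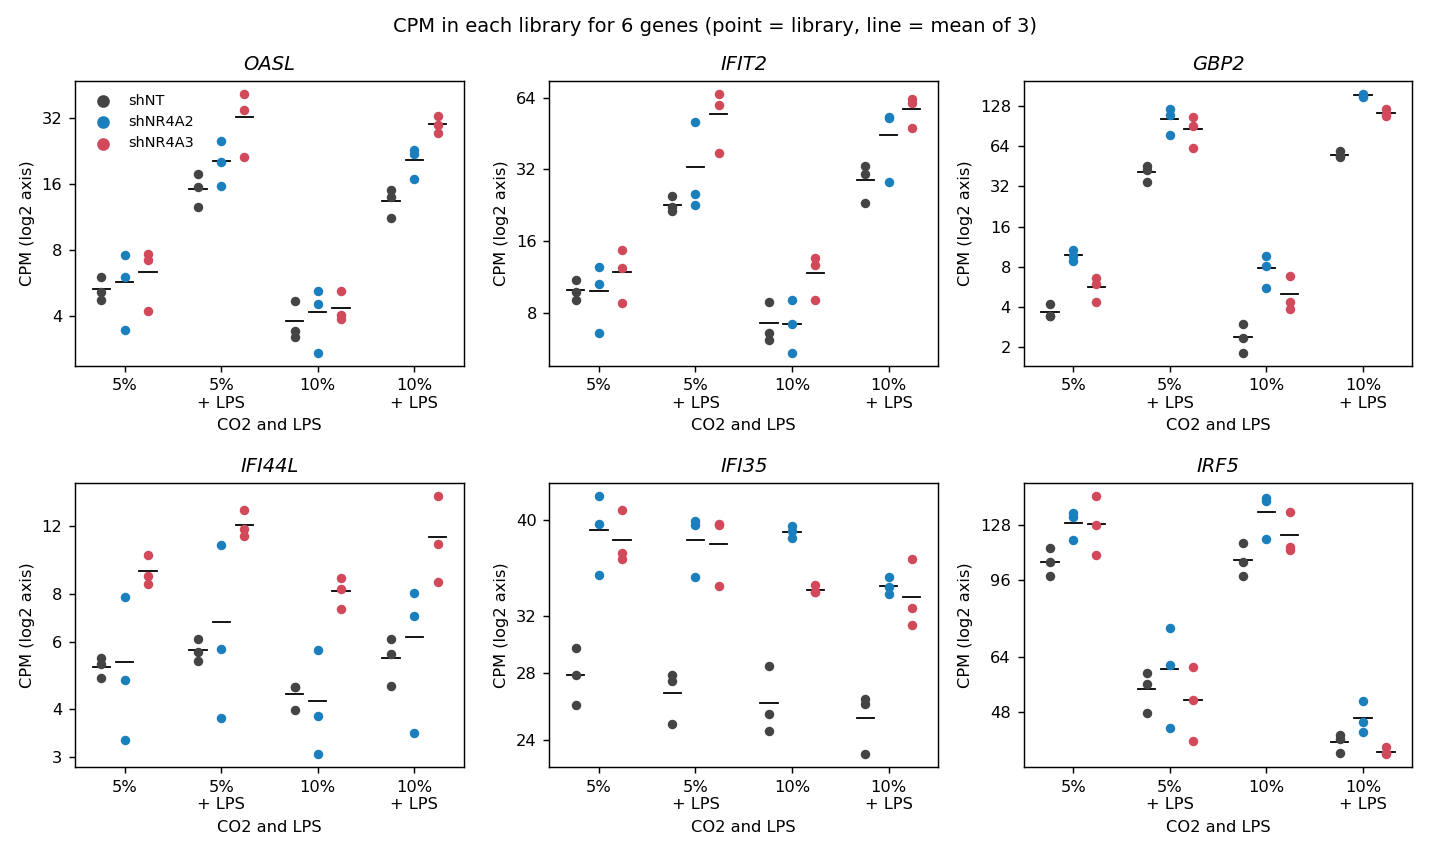
CPM of OASL, IFIT2, GBP2, IFI44L, IFI35 and IRF5 in each of the 36 libraries (points, log2 axis) by line, CO2 level and LPS, with a line at the mean of 3 libraries. IFI44L separates the shNR4A3 libraries from shNT with or without LPS, GBP2 separates both knockdown lines with LPS, and IRF5 is lower with LPS in each line at each CO2 level.

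Comparing the 2 knockdown lines directly tests whether they differ from each other, which separate comparisons with the shared shNT libraries do not. At 5% CO2 1 member was higher and 2 lower in shNR4A3 than in shNR4A2 in basal cells, where 1.05% and 1.65% of all genes were (2.70% in all), and with LPS 1 was higher and none lower, against 1.03% and 1.22% (2.25%). At 10% CO2 6 were higher and 1 lower in basal cells, against 3.50% and 4.05% (7.56%), and with LPS 3 were higher and 2 lower, against 2.75% and 3.28% (6.04%). The largest of these differences was that of IFI6, at 128, 157 and 134 CPM in shNR4A3 against 33.5, 75.1 and 72.0 CPM at 5% CO2 basal (log2 1.21). With the replicate as a block the call of IFI6 was lost at 5% CO2 basal and at 10% CO2 basal (edgeR adjusted p = 0.0801 and 0.241), with log2 differences of 1.28 and 1.02. GBP2 was lower in shNR4A3 than in shNR4A2, by −0.79 in basal cells at 5% CO2 and by −0.43 with LPS at 10% CO2. XAF1, a pro-apoptotic interferon-stimulated gene, was 0.72 higher in shNR4A3 with LPS at each CO2 level, at 22.6, 24.7 and 26.9 CPM against 12.7, 16.3 and 16.0 CPM at 5% CO2. With the replicate as a block the counts were 11 (background 11.2%), 24 (21.5%), 17 (20.7%) and 30 (16.2%) in the 4 conditions in the same order, and all 4 comparisons had replicates that deviated together. Leaving out 1 library moved the counts to between 0 and 3 at 5% CO2 basal, 0 and 6 at 5% CO2 with LPS (6 without shNR4A2 replicate 3, 0 without shNR4A2 replicate 1 or shNR4A3 replicate 1 or 3), 3 and 7 at 10% CO2 basal and 3 and 6 at 10% CO2 with LPS.

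Whether the rise with LPS itself differed between a knockdown line and shNT was tested as an interaction, and no member passed in any of the 4 such tests with edgeR. At an unadjusted p under 0.05 the interaction had 1 member in shNR4A2 at each CO2 level, and 11 and 8 in shNR4A3 at 5% and 10% CO2. DESeq2 called 1 in shNR4A2 and 3 in shNR4A3 at 10% CO2 and 0 in either line at 5% CO2, and the replicate block gave 1 and 5 at 10% CO2. Of all genes tested with edgeR, 0.0451% passed for shNR4A2 and 0.198% for shNR4A3 at 10% CO2. At that level DESeq2 called 50 and 99 genes in all, and the replicate block 74 and 179 (0.418% and 1.01%). The larger values among the members were 1.00 ± 0.29 for IFIT2 in shNR4A3 at 5% CO2 and 0.95 ± 0.23 for OASL in shNR4A3 at 10% CO2 (edgeR adjusted p = 0.901 and 0.145). Hence members called with LPS in shNR4A3 and not in shNT, such as MX1 and MX2, are not shown to respond differently in the 2 lines.

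The study's own question was the effect of raised CO2. Fewer of the 48 genes were called for CO2 than for LPS or for shNR4A3. Of all genes 0.0113% to 8.19% were called for CO2, 18.2% to 42.1% for LPS and 5.41% to 14.5% for shNR4A3. With edgeR, shNT basal cells had 0 members called between 10% and 5% CO2, where 0.327% of all genes were higher and 0.288% lower (0.615% in all). Of the members 13 had an unadjusted p under 0.05, and 1 was called by DESeq2 and 1 with the replicate block. These 2 settings called 358 and 144 genes in all. In shNT with LPS 3 members were higher and 1 lower at 10% CO2, against 4.47% and 3.72% of all genes (8.19%). These calls were 8.33% of the members, about the share of all genes. In basal shNR4A3 2 were lower and none higher, against 0.570% and 0.559% (1.13%). Those 2 were 4.17% of the members. None was called in shNR4A2 basal, where 0.00564% of all genes were higher and as many lower (0.0113%), in shNR4A2 with LPS, where 0.152% were higher and 0.0451% lower (0.198%), or in shNR4A3 with LPS, where 0.931% were higher and 1.20% lower (2.13%). At an unadjusted p under 0.05 these 3 held 3, 9 and 8 members. DESeq2 called 0, 3 and 2 members in these 3 comparisons, and 43, 600 and 885 genes in all. Tests of whether the CO2 effect differed with LPS or between lines called 0 members in all 7 such interactions with edgeR. In these tests 0 to 9 members were below 0.05 before adjustment. By DESeq2 1 member passed, in the test of CO2 with LPS against basal in shNT, where 53 genes passed in all. In the other 6 DESeq2 called 0 members.

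The members that passed with CO2 were few. IFIH1 was at 31.6, 30.2 and 42.3 CPM at 5% and 46.2, 58.2 and 52.3 CPM at 10% CO2 in shNT with LPS (log2 0.60, adjusted p = 0.0237 by edgeR). GBP5 was 0.61 and GBP2 0.43 higher there, and IRF5 was lower by −0.39, with 55.5, 58.9 and 47.7 CPM at 5% and 42.5, 38.7 and 41.7 CPM at 10% CO2. The sets did not overlap for IFIH1 or for IRF5, nor did those of 29.8% of all genes in this comparison. Of the 48 members 10 had no overlap there. IRF5 had like values in the other lines with LPS, −0.37 in shNR4A2 and −0.38 in shNR4A3, which did not pass the test. In basal shNR4A3, IRF1 was at 49.8, 61.3 and 46.3 CPM at 5% and 36.5, 31.1 and 33.3 CPM at 10% CO2 (log2 −0.63), and MX2 at 28.8, 34.9 and 37.4 against 20.5, 23.5 and 26.2 CPM (log2 −0.51). Leaving out 1 library of shNT with LPS changed the 4 calls to between 0 and 7 (7 without 10% CO2 replicate 1, 0 without 5% CO2 replicate 1 or 2 or 10% CO2 replicate 2, 2 without 10% CO2 replicate 3), and leaving out 1 of the basal shNR4A3 libraries changed the 2 calls to between 0 and 4. In shNR4A2 and shNR4A3 with LPS, leaving out replicate 3 of the 5% CO2 libraries gave 7 and 2 calls.

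The signs of the CO2 differences showed a tilt. In basal cells 28 of the 48 members had a negative value in all 3 lines, against 28.3% of all genes, and 4 a positive one in all 3, against 27.9%. With LPS 21 were positive in all 3 lines (30.0% of all genes) and 11 negative (30.6%). IRF1, MX1, MX2, GBP4, HERC5, RSAD2, CMPK2, PARP9, IFI35 and IFI44L were negative in all 6 comparisons, as were 17.3% of all genes. Module means differed by −0.16 between 10% and 5% CO2 in basal shNT, without overlap of the libraries, and by −0.11 and −0.12 in basal shNR4A2 and shNR4A3, with overlap. Between same-numbered replicates the basal differences were negative in 3 of 3 pairs in each line, from −0.19 to −0.13 in shNT, −0.16 to −0.07 in shNR4A2, the only line where the numbers paired the CO2 libraries, and −0.19 to −0.08 in shNR4A3. With LPS the differences were 0.01, 0.09 and 0.05, with overlap in all 3 lines.

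**Figure D5:**
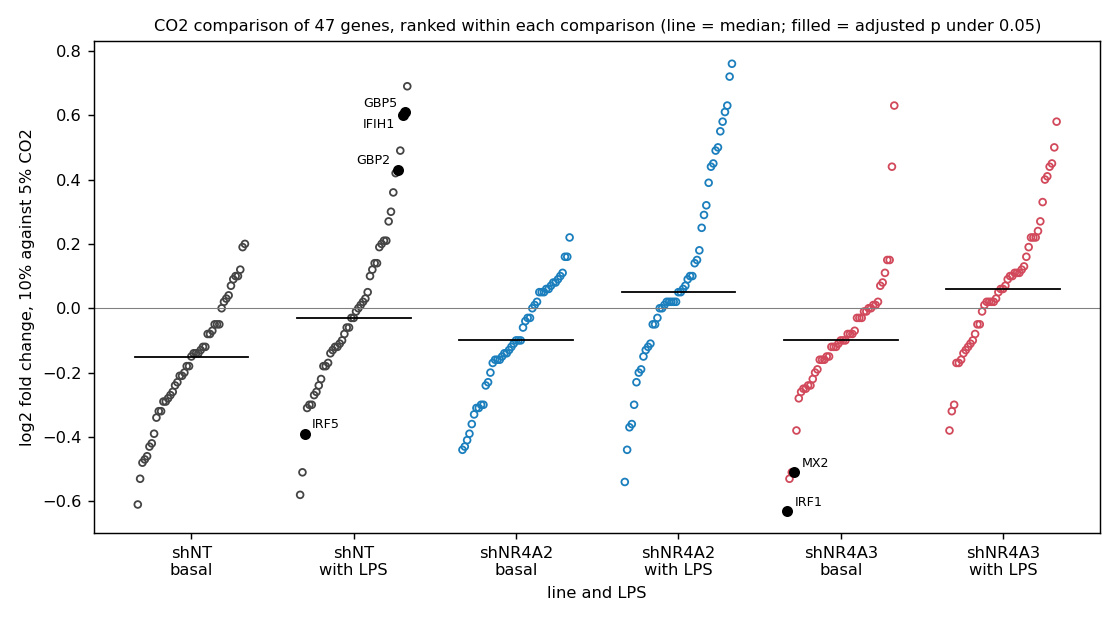
Log2 difference between 10% and 5% CO2 of 47 members in each line, basal and with LPS, ranked within each panel, with filled points for members called at adjusted p under 0.05. Most basal points lie below 0, and the 4 called points in shNT with LPS are IFIH1, GBP5, GBP2 and IRF5.

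Genes around the module, from lists of the interferon pathway, moved as follows. The 4 interferon-induced chemokine genes rose with LPS in all 6 comparisons, as did 6.87% of all genes. CXCL10 rose by 8.24 to 9.55 on the log2 scale, and none of the 4 was called between a knockdown line and shNT. Other interferon genes had no member tested among 12, since their counts were too low. Of 7 tested genes of the TLR4 to IRF3 arm, 3 to 5 rose with LPS, against 8.91% to 20.6% of all genes. The adaptor TICAM1 (TRIF) rose by 2.49 to 2.79 and IKBKE by 0.88 to 1.48. Among feedback inhibitors SOCS3 rose by 5.36 to 6.55 and SOCS1 fell in 3 comparisons. The receptor subunit IFNAR2 was higher in both knockdown lines in all 4 conditions, by 0.41 to 0.67.

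Genes that mark other cell types or cell state moved with the lines as well. The summed CPM of the 9 monocyte markers was 1210 to 1570 in basal shNT, 1530 to 1880 in basal shNR4A2 and 1630 to 2270 in basal shNR4A3, and 820 to 1150, 1180 to 1580 and 1330 to 1830 with LPS. The sum of 5 T and NK cell markers was 4.56 to 6.63 CPM in shNT, 33.1 to 49.8 in shNR4A2 and 22.8 to 39.8 in shNR4A3, almost all of it NCAM1. CD3D, CD3E, CD2 and KLRD1 were each at a mean of 0.181 CPM or less in every condition. LYZ and CSF1R were called higher in both knockdown lines in all 4 conditions. The part of these shifts in the differences between the lines was not tested.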

How the data were processed

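The 36 libraries were sequenced from polyadenylated RNA of transduced THP-1 cells. According to the methods and the processing notes, the authors used Trimmomatic 0.36 for trimming, STAR 2.5.2b for alignment to GRCh38 and featureCounts (Subread 1.5.2) for counting per gene. The deposited values were raw counts per gene, used as deposited. Not given in the sources used here are the annotation release, the strand option and the unit of counting (read or fragment). Depth was 16171161 to 23929138 counts per library, and counts set the precision of low genes such as IFNB1 and GBP1.

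Groups came from the labels. The members and lists were chosen with earlier results of these data known. Genes were kept by filterByExpr (minimum count 10, minimum total 15, with the 12 conditions as groups), leaving 17720. Each of 35 comparisons was fitted with edgeR 4.0.16 in R 4.3.3 (TMM, robust quasi-likelihood F test) on its own libraries, with two-sided p-values adjusted by Benjamini-Hochberg over all 17720 genes and calls at an adjusted p under 0.05. SE was the absolute log2 fold change divided by the square root of F. CPM used TMM library sizes and log2 CPM a prior count of 2, while TPM used the gene lengths in the deposited tables. The fit was tested on simulated data. With 3 libraries a group, an exact permutation test cannot go below p = 0.1, so none was used. All members could be named, and values in every library were chosen for IFNB1 and for up to 5 called members per direction with the largest changes, while the library values of IFI35, OASL and IFI44L between lines, IFI44L with LPS and IFI6 in shNR4A2 were picked after their values were seen.

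Replicates are numbered in the labels and stand for separate experiments by the study's methods. P-values measure the spread between these replicates. Same-numbered libraries were taken as pairs where every pair's deviations from the group means correlated above 0.1, which held in 5 of 6 LPS comparisons, 7 of 8 comparisons of a knockdown line with shNT, 4 of 4 between the knockdown lines and 1 of 6 CO2 comparisons. Alternatives were DESeq2 1.42.0, no filter on low counts, library-size scaling, 1 fit to all libraries, the replicate block, the median over members and leaving out each library.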

Additional observations from a re-analysis of the deposited data

Results flagged for a closer look

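Members that differed between the knockdown lines were found by a direct test of shNR4A3 against shNR4A2 in the same condition (edgeR, called at an adjusted p under 0.05), and each value is a log2 difference with shNR4A3 minus shNR4A2. In basal cells at 5% CO2, GBP2 stood at −0.79, GBP5 at −0.63 and IFI6 at 1.21. With LPS at 5% CO2, XAF1 stood at 0.72. In basal cells at 10% CO2, IRF8 stood at 0.44, IFIH1 at 0.68, IFIT2 at 0.70, GBP5 at −0.65, IFI6 at 0.98, IFI44 at 0.78 and IFI44L at 0.93. With LPS at 10% CO2, IFIH1 stood at 0.52, OASL at 0.53, GBP2 at −0.43, TRIM25 at −0.50 and XAF1 at 0.72. The calls of IFI6 were lost with the replicate as a block, and same-numbered libraries deviated together in both comparisons. Both knockdown lines are set against the same shNT libraries elsewhere, so only this direct test compares them with each other. Groups of 3 libraries are too small to test a library as an outlier.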

How the results depend on the processing

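No member called for CO2 or between the knockdown lines reversed. Small CO2 differences of the module mean did change sign when 1 library was left out. In basal shNR4A2 the difference ran from −0.24 to 0.02. With LPS it ran from −0.06 to 0.12 in shNT, −0.03 to 0.27 in shNR4A2 and −0.03 to 0.15 in shNR4A3. All other module differences kept their sign. The 6 counts of members called with LPS kept within 1.5 times of their values when any 1 library was left out (16 to 22 and 19 to 24 in shNT, 12 to 17 and 18 to 30 in shNR4A2, 22 to 30 and 32 to 38 in shNR4A3). Low counts limit IFNB1 and GBP1, and p-values of 3 against 3 libraries rest on a spread pooled across genes. Where an alternative moved a count, the cause was not tested.

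With the replicate block the members called were 23 and 37 with LPS in shNR4A2 (5% and 10% CO2), 1 for CO2 in basal shNT and 3 in shNR4A2 with LPS, 11, 18, 9 and 33 for shNR4A2 against shNT, 20 and 37 for shNR4A3 against shNT at 5% CO2, 11, 24, 17 and 30 for shNR4A3 against shNR4A2, and 1 and 5 for the difference in LPS response of shNR4A2 and shNR4A3 from shNT at 10% CO2. The order in each set of 4 is 5% CO2 basal, 5% CO2 with LPS, 10% CO2 basal and 10% CO2 with LPS. Replicate numbers did not pair the libraries for CO2 in basal shNT, CO2 in shNR4A2 with LPS or shNR4A2 against shNT at 10% CO2 basal, so these share only a number. The block moved no other count by over 1.5 times.

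With DESeq2 the counts were 1 for CO2 in basal shNT, 3 in shNR4A2 with LPS and 2 in shNR4A3 with LPS (358, 600 and 885 genes in all). For shNR4A3 against shNR4A2 with LPS they were 3 and 8 at 5% and 10% CO2 (698 and 1043 genes). The LPS response of shNR4A2 and shNR4A3 against shNT at 10% CO2 had 1 and 3 members (50 and 99 genes). The CO2 response with LPS against basal in shNT had a count of 1 (53 genes). Without the filter they were 2, 8, 6 and 6 for CO2 in shNT basal, shNT with LPS, shNR4A2 with LPS and shNR4A3 with LPS, 11 for shNR4A2 against shNT at 5% CO2 with LPS, 5, 12 and 14 for shNR4A3 against shNR4A2 at 5% CO2 basal, 5% CO2 with LPS and 10% CO2 with LPS, 1, 5 and 2 for the LPS response of shNR4A2 at 10% CO2 and of shNR4A3 at 5% and 10% CO2, and 2 and 1 for the CO2 response with LPS against basal in shNT and shNR4A2. With 1 fit to all 36 libraries they were 2, 3, 1 and 1 for CO2 in shNT with LPS, shNR4A2 with LPS, shNR4A3 basal and shNR4A3 with LPS, 5 and 7 for basal shNR4A3 against shNT at 5% and 10% CO2, and 4 and 3 for shNR4A3 against shNR4A2 with LPS. With library-size scaling they were 1 for CO2 in basal shNR4A3 and 0 for shNR4A3 against shNR4A2 at 5% CO2 with LPS, and the module mean rose with LPS by 0.25 and 0.38 in shNT and by 0.50 and 0.63 in shNR4A3. The median over members in place of the mean gave −0.32 for CO2 in basal shNR4A3, 0.45 and 0.74 for shNR4A3 against shNT at 5% CO2 basal and with LPS, and 0.35 for shNR4A3 against shNR4A2 at 5% CO2 basal.

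Leaving out 1 library gave 0 to 7 called for CO2 in shNT with LPS, 0 to 7 in shNR4A2 with LPS, 0 to 4 in shNR4A3 basal and 0 to 2 in shNR4A3 with LPS. Counts ran from 1 to 4, 2 to 7, 3 to 7 and 5 to 29 for shNR4A2 against shNT, from 8 to 17, 13 to 31, 8 to 14 and 19 to 34 for shNR4A3 against shNT, and from 0 to 3, 0 to 6, 3 to 7 and 3 to 6 for shNR4A3 against shNR4A2. They were 0 to 1 for the LPS response of shNR4A2 at 10% CO2, 0 to 2 for that of shNR4A3 at 5% CO2 and 0 to 1 for the CO2 response with LPS against basal in shNT.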

Other observations

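Interferon-stimulated genes outside the module were followed with a second list of 32 genes, of which 31 were tested. Against shNT, 7 of them were higher in shNR4A3 at 5% CO2 basal (3.36% of all genes) and 8 at 5% CO2 with LPS (3.24%). At 10% CO2 10 were higher (3.49%) and 1 lower (3.35%) in basal cells, and 16 were higher with LPS (7.30%). IFI27, a mitochondrial interferon-stimulated gene, had log2 differences of 2.22, 2.11, 1.96 and 2.46 in these 4 conditions, and TRIM22, IFI16, SP100 and EPSTI1 were also called higher in all 4. In shNR4A2 the counts were 3, 4, 5 and 11 higher, against 3.22%, 3.84%, 4.55% and 9.29% of all genes. There 1 was lower in each condition, against 2.47%, 2.37%, 3.40% and 9.58%. Compared directly, IFI27 was 1.71 to 2.05 higher in shNR4A3 than in shNR4A2 on the log2 scale. With LPS the list had 7 higher and 4 lower in shNT at 5% CO2, against 11.2% and 11.6% of all genes. At 10% CO2 it had 9 higher and 7 lower there, against 15.1% and 16.1%. In shNR4A3 9 were higher and 3 lower at 5% CO2, against 11.9% and 13.4%. At 10% CO2 10 were higher and 8 lower in shNR4A3, against 20.6% and 21.5%.

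The differences between lines with LPS were also read by whether a member had an ISRE core in its promoter window. In shNR4A3 against shNT with LPS, 10 of the 23 members with the core and 8 of the 13 without were higher at 5% CO2, with median log2 differences of 0.53 and 0.54, and 16 and 9 were higher at 10% CO2, with medians of 0.70 and 0.67.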
